A study of Mus musculus with 6 samples.

Results

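The genes described here encode the proteins of the mitochondrial ribosome, as measured in C3H 10T1/2 cells, an established mouse embryonic fibroblast line that the labels call 10 T1/2. Members were the probe sets that the platform annotation assigns to exactly 1 gene whose symbol begins with Mrpl or Mrps and a digit. There were 76 such genes among the 18194 named by a probe set of a single gene on either of 2 Affymetrix array designs. On MOE430A, 127 of 20393 such probe sets named 74 of 12394 genes, and on MOE430B, 33 of 14674 named 27 of 9611, with 25 members on both designs. A further 3 probe sets on MOE430A and 1 on MOE430B named a member together with another gene and were left out.

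The study holds 3 RNA samples (1, 4 and 5), each put on 1 array of each design, or 6 arrays in all. All cells were grown in DMEM with 10% FBS, were untreated as far as the labels say, and were harvested at 80% confluency; RNA was prepared with RNeasy and supplied as 5 µL at 100 ng/µL. The labels give a single group, do not say whether the samples came from separate cultures, and say that the best samples were chosen for hybridisation. The spread given below is therefore that of these samples, which may be technical, and with a single group no test was made.

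Mitochondrial ribosomes stand in the matrix at the inner membrane and make the few proteins that mitochondrial DNA encodes, all of them core subunits of the respiratory chain and ATP synthase. Their RNAs come from mitochondrial DNA, but every protein is encoded in the nucleus, made in the cytosol and imported. Some of these proteins descend from those of the bacterial ribosome, and others have no bacterial counterpart and were added during the evolution of mitochondria. The factors YY1 and NRF1 and the ETS-family factor GABP are known activators of nuclear genes for mitochondrial proteins.

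The promoters of 4 members are printed here as examples and do not stand for the family. First come those of Mrps18b and Mrpl17, which had among the largest differences between samples on MOE430A, and of Mrpl43, which had the smallest, each on its brightest detected probe set. Mrps15, also among the largest differences, is shown because it held no ETS, YY1 or NRF1 letters in the stretch printed. Mrpl42, among the largest differences too, and Mrpl35, among the smallest, are not printed. Both held no match in the same stretch, though both have YY1 letters outside it. Capitals mark matches to CCGGAAG (the core bound by ETS factors) or GCATGCGC (the NRF1 core), on either strand. Sequences are from RefSeq on GRCm38.p6, run to base 30 of the transcript and begin 250 bases before it, except that of Mrpl43, which begins 115 bases before it, where the divergent gene Twnk starts. They lie at chr17:35916411-35916690, chr7:105811058-105811337 and chr19:45006413-45006557 on the minus strand and at chr4:126046678-126046957 on the plus strand.
Mrps18b: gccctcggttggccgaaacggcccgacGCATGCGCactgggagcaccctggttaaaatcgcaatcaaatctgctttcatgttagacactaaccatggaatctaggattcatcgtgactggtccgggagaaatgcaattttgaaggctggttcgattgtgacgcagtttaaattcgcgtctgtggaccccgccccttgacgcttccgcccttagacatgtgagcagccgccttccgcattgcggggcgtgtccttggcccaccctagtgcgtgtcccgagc
Mrpl17: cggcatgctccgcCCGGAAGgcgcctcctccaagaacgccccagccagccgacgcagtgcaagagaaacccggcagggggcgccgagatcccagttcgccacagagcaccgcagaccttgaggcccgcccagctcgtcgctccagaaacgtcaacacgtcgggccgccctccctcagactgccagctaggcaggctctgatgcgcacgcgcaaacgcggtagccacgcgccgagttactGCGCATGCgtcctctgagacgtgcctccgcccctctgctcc
Mrpl43: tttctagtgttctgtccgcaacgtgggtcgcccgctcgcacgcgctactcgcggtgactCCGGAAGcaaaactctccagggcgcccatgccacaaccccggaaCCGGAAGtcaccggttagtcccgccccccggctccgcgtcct
Mrps15: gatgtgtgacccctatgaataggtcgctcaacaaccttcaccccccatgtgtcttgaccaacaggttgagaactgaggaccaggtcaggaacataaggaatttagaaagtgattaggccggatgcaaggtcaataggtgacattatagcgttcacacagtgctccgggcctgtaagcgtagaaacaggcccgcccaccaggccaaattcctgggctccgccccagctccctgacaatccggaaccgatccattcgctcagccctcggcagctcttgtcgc

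In Mrps18b, which also holds ETS letters outside the stretch printed, the NRF1 match began 223 bases before the start. In Mrpl17 an ETS match began 237 bases and an NRF1 match 11 bases before it. Mrpl43 held a pair of ETS matches, beginning 56 and 12 bases before the start. A match is a run of letters and does not show that a factor binds.

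Of the 76 members, 67 had a promoter in the RefSeq table, taken there as 250 bases before and 50 after each start. The ETS letters CCGGAAG stood in 25 of the 67 genes (37.3%), against 12.9% of 17492 protein-coding genes with such a window. The YY1 letters AAGATGGC were found in 12 members (17.9%, against 3.57%), and the NRF1 letters GCATGCGC in 8 (11.9%, against 3.94%). At least 1 of these 3 motifs was present in 37 members, or 55.2%, against 18.7% of all genes. Letters common to promoters in general were searched as well. GGGCGG, bound by SP factors, was in 50.7% of members and 49.2% of all genes, and CCAAT in 38.8% and 42.3%. TATAAA was in 7.46% of members and 14.8% of all. Both strands were searched, and no motif searched contains another.

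Many members share their start region with a gene read the other way. A divergent neighbour whose start lay within 1000 bases was found for 23 of the 67 members (34.3%), against 8.48% of all genes. Some neighbours serve the mitochondrion as well, but their share was not counted, and those named here are examples that do not stand for the 23. Mrps12 starts 147 bases from Sars2, the mitochondrial seryl-tRNA synthetase, Mrpl47 starts 308 bases from Ndufb5 of complex I, and Mrpl43 starts 116 bases from Twnk, the mitochondrial DNA helicase. Mrpl46 and Mrps11, both members, start 42 bases apart, and neither passed the detection limit used below. Mrpl49 starts 192 bases from Fau, which encodes a protein of the cytosolic ribosome.

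**Figure D1:**
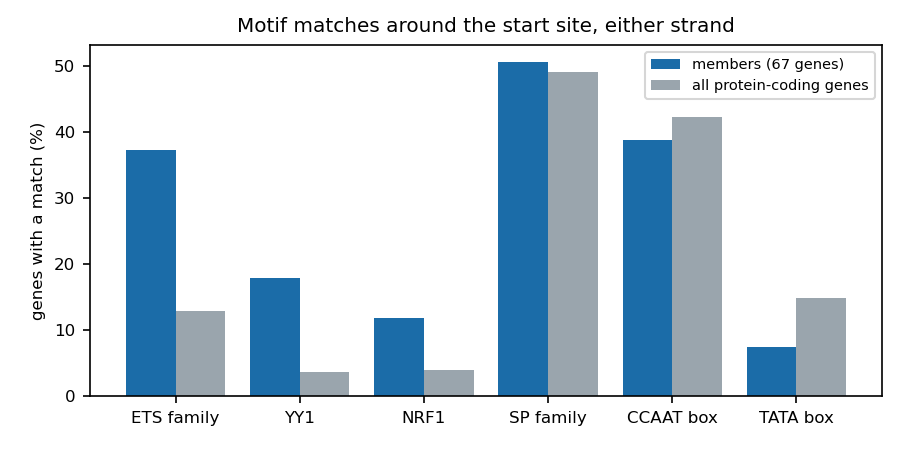
Share of genes (%) whose window of 250 bases before to 50 after the start holds each motif on either strand, for the 67 members with a window (blue) and all 17492 protein-coding genes (grey). The ETS, YY1 and NRF1 bars are higher for members (37.3, 17.9 and 11.9%), and the SP and CCAAT bars are of similar height in both.

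A signal was called detected when it lay above a limit, the 95th percentile of probe sets for tissue-restricted genes (such as liver or eye genes), on 3 of 3 arrays of a design. On MOE430A the limits were 1068, 1355 and 931 signal units in samples 1, 4 and 5, from 122 probe sets. On MOE430B they were 1433, 1861 and 1563, but rested on only 9 probe sets. Gene lists of the cell type were checked the same way: 13 of 16 fibroblast markers were detected on MOE430A, among them Col1a1 and Vim, whereas 0 of 9 endothelial, 0 of 8 leukocyte, 0 of 8 epithelial and 1 of 8 neuron and glia markers were. The fibroblast markers themselves differed between samples, with a median of -1.98 log2 in sample 5 against the others. An MOE430B probe set for the epithelial gene Epcam read 31382, 139544 and 29693, while that on MOE430A read 47.4, 39.1 and 39.5. In bulk RNA, fewer cells of a type and less RNA per cell cannot be told apart.

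On MOE430A, 53 of 74 member genes had a detected probe set, or 71.6%, against 30.7% of all genes. Counted by probe set, 63 of 127 members were detected (49.6%) against 24.5% of all probe sets. The members also lay above the general share when genes with the same number of probe sets were set side by side: 30 of 41 members with a single probe set were detected, against 20.9% of all such genes. On MOE430B, 15 of 27 member genes passed (55.6%, against 31.8% of all genes) and 17 of 33 member probe sets (51.5%, against 24.7%). This count depends on the limit. With the MOE430A limit carried to MOE430B by probe sets common to both designs, an alternative added after seeing the data, 6 members remained, Mrpl9, Mrpl27, Mrpl43, Mrpl52, Mrps6 and Mrps23, against 11.2% of all genes. The probe sets of Mrpl9, Mrpl52, Mrps6 and Mrps23 that passed it are of a class that can match several transcripts. With the background list widened by markers of other cell types, also added after seeing the data, 1 member remained, Mrps6, against 1.52% of all genes. That list held only 18 MOE430B probe sets, among them the bright Epcam probe set given above. Its limits were 7413, 23398 and 6347 in samples 1, 4 and 5. Counting either design, 56 of 76 members were detected (73.7%, against 34.9% of all genes), 12 of them on both, and 20 on neither.

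By role, 34 of 49 proteins of the large subunit (69.4%) and 21 of 26 of the small subunit (80.8%) were detected on either design. Among proteins with a bacterial counterpart 21 of 29 in the large and 15 of 17 in the small subunit were detected, and among those without, 13 of 20 and 6 of 9. These counts were not tested against each other. Both Mrps18a and Mrps30 are counted with the large subunit, where structures place them, in spite of their names. Mrps36 was named as a ribosomal protein and is now known as part of the 2-oxoglutarate dehydrogenase complex of the citric acid cycle.

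**Figure D2:**
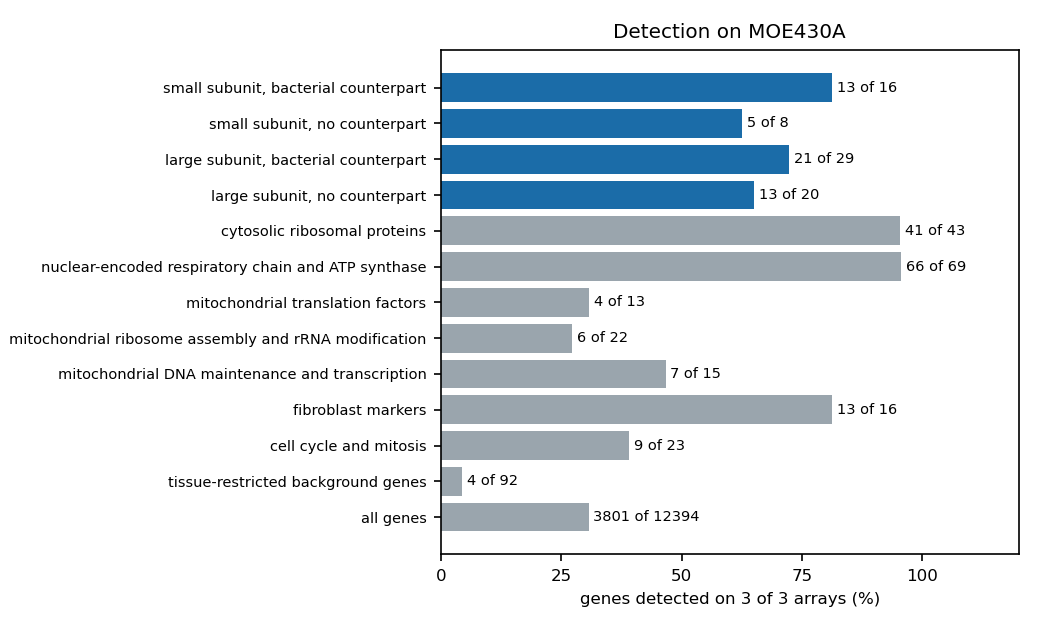
Share of measured genes (%) detected on 3 of 3 MOE430A arrays, with counts beside each bar, for the members by role (blue) and for other lists and all genes (grey). The 4 roles run from 5 of 8 to 13 of 16 genes, below cytosolic ribosomal proteins (41 of 43) and above all genes (3801 of 12394).

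Members detected on neither design were Mrpl1, Mrpl12, Mrpl18, Mrpl19, Mrpl20, Mrpl32, Mrpl33, Mrpl37, Mrpl38, Mrpl46, Mrpl49, Mrpl50, Mrpl54, Mrpl55, Mrps9, Mrps11, Mrps18a, Mrps22, Mrps25 and Mrps31. Failing this limit does not show that a transcript is absent, since probe sets differ in how well they bind their target. Mrpl1, at the mobile stalk through which transfer RNA leaves, had its highest probe set at 890, 592 and 676 in samples 1, 4 and 5 on MOE430A. Mrpl12, the counterpart of bacterial L7/L12 that recruits translation factors, read 1016, 975 and 2835, above the limit in sample 5 only. Mrpl18 read 451, 1047 and 1216, and the highest of 3 probe sets for Mrpl19 read 576, 544 and 1204. On MOE430A sample 5 was highest in each of these last 3 genes and was the sample above the limit. The MOE430B probe set of Mrpl19 had another order, at 2949, 1407 and 2554, above the limit in samples 1 and 5. Mrps31 was low in sample 4 on both designs, at 1770, 785 and 1583 on MOE430A and 1781, 1198 and 1860 on MOE430B, and passed in the other samples. Mrpl46 missed narrowly, with 1572, 1326 and 1553, below the limit in sample 4 alone. Of the 64 member probe sets not detected on MOE430A, 5 passed the limit on 2 arrays, 17 on 1 and 42 on none.

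Among large-subunit proteins with a bacterial counterpart, Mrpl2, which lies beside the peptidyl transferase centre, gave 3601, 5168 and 5644 in samples 1, 4 and 5 on MOE430A. Mrpl3 gave 4203, 3304 and 3926, with sample 4 lowest. Mrpl4, whose counterpart lines the exit tunnel, gave 4125, 5185 and 3580, with sample 5 lowest. These 3 probe sets had 3 different orders of samples. Mrpl22, Mrpl23 and Mrpl24, whose counterparts stand around the tunnel exit, were ordered differently too: Mrpl22 read 5930, 5415 and 7283, Mrpl23 read 5956, 6131 and 4768, and Mrpl24 read 1381, 2652 and 2432. Of the stalk proteins, Mrpl10 read 2108, 2843 and 2894, with sample 1 lowest. Mrpl17 had one of the largest ranges, 1124, 2501 and 1677, a span of 2.23-fold with sample 1 low and sample 4 high (SD 0.58 log2, n = 3). Its second probe set read 931, 682 and 427, below the limit in every sample and in another order, and its MOE430B probe set read 2923, 1152 and 2571, above the limit in samples 1 and 5.

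Large-subunit proteins without a bacterial counterpart ranged widely in spread. Among the brightest detected probe sets of the members, that of Mrpl43 varied least, at 1778, 1707 and 1647, a span of 1.08-fold (SD 0.06 log2, n = 3). Mrpl37 read 637, 568 and 779 and was not detected. The higher MOE430A probe set of Mrpl38 read 70.8, 372 and 836, and that on MOE430B 2459, 1159 and 2785, above the limit in samples 1 and 5, so that it was detected on neither design. Mrpl42 read 2546, 5700 and 3282, a span of 2.24-fold with sample 4 alone high. For Mrpl39 both probe sets were detected and gave the same account, 8292, 15305 and 14151 for the first and 2899, 5562 and 5614 for the second, with sample 1 low in each. Mrpl41 was highest in sample 1 on both of its detected probe sets, at 4943, 3748 and 3929 and at 4158, 3105 and 3199. Mrpl45, which anchors the ribosome at the inner membrane near the tunnel exit, read 1596, 1447 and 2281. Mrpl44, a protein with an RNase III fold, read 3976, 3354 and 3459 on its brightest probe set. Mrps30 read 1440, 1710 and 2418, with sample 5 high. Mrpl58, a peptidyl-tRNA hydrolase built into the ribosome, read 2033, 2224 and 2399, and its values lay within 1.18-fold.

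In the small subunit, a protein with a bacterial counterpart, Mrps18b, had the largest range on MOE430A when each member was taken on its brightest detected probe set. Mrps18b read 1361, 1569 and 3434, so that sample 5 stood 1.23 log2 above the mean of the other 2. Its paralogs did not follow it: Mrps18c read 2794, 3617 and 2859, highest in sample 4, and Mrps18a read 870, 998 and 1215, above the limit in sample 5 only. Mrps15 was low in sample 1 on both detected MOE430A probe sets, at 1988, 3894 and 4090 on the brighter and at 1676, 2636 and 4733 on the other, which spanned 2.82-fold. Mrps2 read 3291, 3064 and 2844. Mrps6 read 2337, 4164 and 2487, with sample 4 high. Mrps7 read 1327, 1408 and 1877, with sample 5 high. Mrps12, whose counterpart helps monitor codon and anticodon pairing, read 2527, 3111 and 2557. Mrps5 had no detected probe set on MOE430A, where the higher of 2 read 862, 984 and 1514.

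Small-subunit proteins without a bacterial counterpart had several orders of samples. Mrps33 read 4998, 3557 and 3285, and Mrps34 read 3060, 2347 and 2007, both highest in sample 1. Mrps23 read 2096, 2174 and 2865 and Mrps26 read 1769, 1723 and 2004, both highest in sample 5. Mrps35 read 1182, 1439 and 1193, highest in sample 4. Mrps22 read 1061, 1085 and 1202 and was not detected. Mrps25 was above the limit in sample 5 alone, with 1013, 1304 and 1909 on the highest of 3 probe sets. Mrps36 of the citric acid cycle complex read 1351, 1661 and 976, lowest in sample 5.

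The other detected members of MOE430A had ranges between those of Mrpl43 and Mrps18b on their brightest probe sets, and several orders recurred. Sample 5 was highest and sample 1 lowest in a first set, seen in both subunits. Mrpl13 read 2882, 3229 and 4755 on its detected probe set. Mrpl15 read 1910, 2312 and 3230 on the brighter of its 2 detected probe sets, and 1779, 1453 and 1909 on the other, where sample 4 was lowest. Mrps17 read 1718, 2155 and 3249, a span of 1.89-fold. Mrps24 and Mrps28, also of the small subunit, kept this order. Mrps28 read 1516, 1688 and 2206, and Mrps24 read 1893, 2229 and 2774 on its brighter probe set.

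A second set was highest in sample 4 and lowest in sample 5. Mrpl14 read 1787, 2386 and 1594. Mrpl34 read 2226, 2760 and 1794. Mrpl51 read 10417, 11298 and 8681. Mrpl40 and Mrps21 had this order as well. Mrpl40 read 1921, 2167 and 1790, and Mrps21 read 2601, 3383 and 2524. Others were highest in sample 4 and lowest in sample 1, as Mrpl16 at 2651, 3442 and 3034 and Mrpl36 at 1317, 1594 and 1383. Mrps14 had the same order, at 6443, 8068 and 7983 on its detected probe set, though there samples 4 and 5 lay close together. Mrpl28 was highest in sample 1 on both of its detected probe sets, at 5364, 4521 and 4049 and at 4905, 3614 and 3839.

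**Figure D3:**
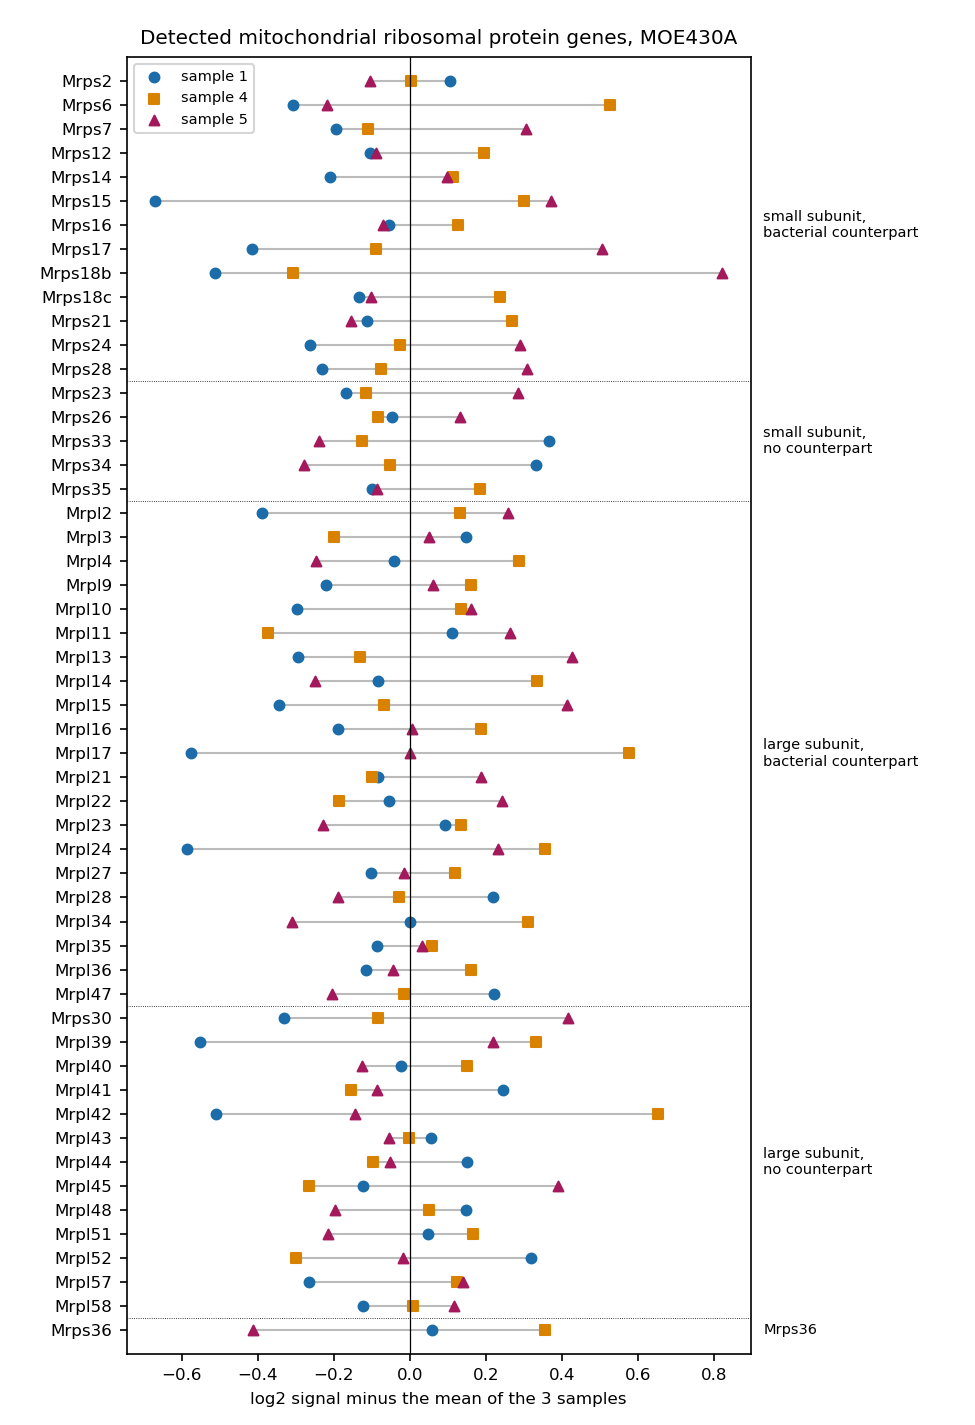
Log2 signal of each of the 53 members detected on MOE430A, minus its mean over the 3 samples, on the brightest detected probe set; points are samples 1 (circle), 4 (square) and 5 (triangle), and lines span their range. Mrps18b, Mrpl42, Mrpl17 and Mrps15 have the widest spans, and sample 1 is the lowest point in 28 of 53 genes.

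Across the 53 detected members of MOE430A, sample 1 lay lower than the mean of the others in 37, with a median difference of -0.16 log2. Over all 3801 detected genes the same median was 0.02, and sample 1 lay lower in 1858. Sample 1 was the lowest sample in 28 members (52.8%), against 34.0% of all detected genes. Sample 4 was highest in 23 (43.4%, against 32.3%) and sample 5 in 19 (35.8%, against 32.5%). Median differences were 0.09 log2 in sample 4 and 0.00 in sample 5, against 0.07 and -0.09 over all genes. The limit was highest in sample 4, so the detection filter can leave out members that are low there. With no filter the members' medians were -0.01 in sample 4 and 0.13 in sample 5. How far the filter shaped these counts of highest and lowest samples was not tested. As a measure of repeat error for a single probe set, not for a median over genes, 78 probe sets present and detected on both designs were used. Among them the SD of a single array measurement had a median of 0.16 log2. The median shift between the designs was first removed for each sample. Over the 78, MOE430B lay above MOE430A by a median of 1.74, 1.97 and 2.00 log2 in samples 1, 4 and 5. Error common to a whole array is thus not part of this SD.

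On MOE430A these differences were uneven over the roles. Small-subunit proteins with a bacterial counterpart had a median of -0.32 log2 in sample 1, where 10 of 13 were lowest. Those of the large subunit had -0.13, with 11 of 21 lowest in sample 1. Proteins without a counterpart had -0.07 in the small and -0.04 in the large subunit, with 2 of 5 and 5 of 13 lowest in that sample. This order of roles did not recur on MOE430B, where few genes were detected. There the small subunit had -0.12 with a counterpart (4 genes) and -0.16 without (2 genes). The large subunit had -0.05 both with (5 genes) and without (4 genes). Sample 1 also had the highest 3′ to 5′ signal ratios, at 24.7 for Gapdh and 17.5 for actin on MOE430A, against 15.0 and 9.57 in sample 4 and 10.6 and 8.68 in sample 5. All 9 cell cycle genes detected on MOE430A were lower in sample 1, with a median of -1.92 log2, against 1858 of all 3801 detected genes. The part of RNA quality and of cell division in the low values of sample 1 was not tested.

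Among detected genes, the spread of the members between samples was below that of genes in general. On MOE430A their median SD between samples was 0.23 log2, against 0.35 over all detected genes, and their median range was 0.43 log2, against 0.66. A range over 2-fold was seen in 4 of 53 members, or 7.55%, against 24.7% of all detected genes. Cytosolic ribosomal proteins had a median SD of 0.24 log2, close to that of the members, and respiratory chain and ATP synthase genes one of 0.31. On MOE430B the median SD of the 15 detected members was 0.26 log2, against 0.34, and 1 of 15 had a range over 2-fold (6.67%, against 22.5%). With no filter the members' median SD was 0.27 log2 on MOE430A and 0.39 on MOE430B. No value over all genes is given here for that setting.

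On MOE430B the members and all genes had similar medians in sample 1. For the members it was -0.06 log2, with 10 of 15 lower. Over all 3058 detected genes it was -0.08, with 1708 lower. The members' median was 0.06 when sample 5 was left out. Sample 1 was lowest in 6 of 15 (40.0%, against 40.1%). Sample 5 was highest in 9 of 15 (60.0%, against 36.2%), with a median of 0.21 log2, which was 0.38 when sample 1 was left out and 0.12 with the carried limit. Sample 4 was highest in 3 (20.0%, against 34.0%), with a median of -0.07, which was -0.38 when sample 1 was left out. The range on this design ran from Mrps10, at 4314, 5030 and 11776 with sample 5 high, to Mrps23, at 6808, 6779 and 7444. Mrps10 is measured only on MOE430B, as is Mrps27, a pentatricopeptide repeat protein of the small subunit, which read 3572, 3339 and 5467. Mrpl9 read 9794, 12901 and 18231, with sample 1 low and sample 5 high, while on MOE430A it read 2896, 3771 and 3519, with sample 4 highest.

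Of the 12 members detected on both designs, 4 had the same highest sample on both (33.3%, against 51.0% of all 508 genes detected on both) and 3 the same lowest (25.0%, against 46.7%). Only Mrpl21 and Mrpl27 agreed in both. Mrpl21 was highest in sample 5 and lowest in sample 4, at 2790, 2760 and 3366 on MOE430A and 3287, 2693 and 3996 on MOE430B. Sample 5 went from lowest to highest for Mrpl47, at 2228, 1890 and 1658 on MOE430A and 2362, 2090 and 2853 on MOE430B, while samples 1 and 4 kept their order. Mrpl48 did likewise, at 2271, 2121 and 1786 on its brightest MOE430A probe set and 2905, 2509 and 3413 on MOE430B. Mrpl35, at 2939, 3248 and 3190 on MOE430A and 2718, 2111 and 1917 on MOE430B, also changed order, as did Mrpl58, which read 2293, 2195 and 1655 on MOE430B. Mrps15, low in sample 1 on MOE430A, read 3812, 3019 and 3919 on MOE430B. Mrps6 read 155868, 152880 and 119016 there, on a probe set of a class that can match several transcripts. In 9 of the 12 the designs share no probe set for the gene.

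Probe sets placed on both designs separate the effect of the probe from that of the array. For Mrpl27, whose counterpart reaches toward the transfer RNA end in the catalytic centre, the same probe set kept its order, at 2101, 2449 and 2229 on MOE430A and 5986, 10943 and 8753 on MOE430B. For Mrpl43 it did not: 1778, 1707 and 1647 on MOE430A became 4324, 5653 and 8194 on MOE430B. The pair of Mrpl52 probe sets common to the designs also moved differently. The first read 647, 899 and 994 on MOE430A and 2344, 3373 and 5818 on MOE430B, lowest in sample 1 and highest in sample 5 on both. The other read 1748, 2065 and 2079, then 6797, 7566 and 6976. A further Mrpl52 probe set, on MOE430A only and the brightest there, read 6356, 4142 and 5039, highest in sample 1. Over the 78 common probe sets detected on both, MOE430B signals were higher by a median of 3.33-fold in sample 1, 3.92-fold in sample 4 and 4.01-fold in sample 5. Differences from the other samples had the same sign on both designs in 54, 56 and 52 of the 78 for samples 1, 4 and 5. Their correlation across these probe sets, which are not independent and come from the same RNA, was 0.72, 0.64 and 0.81.

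**Figure D4:**
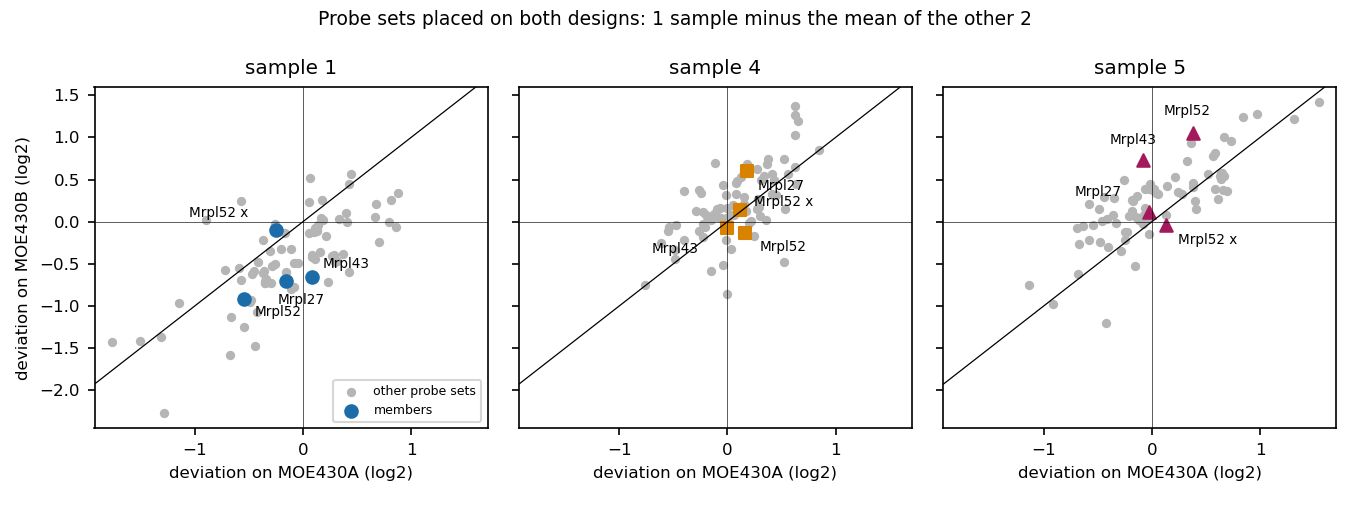
Log2 signal of each sample minus the mean of the other 2, on MOE430A (x) and MOE430B (y), for the 78 probe sets detected on both designs and the 1 Mrpl52 probe set detected on MOE430B only; the line marks equal values, and members are coloured. Mrpl43 in sample 5 stands at -0.08 on MOE430A and 0.73 on MOE430B, away from the line.

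Where a gene had several probe sets, they often differed. On MOE430A, 33 members had more than 1, of which 4 had all detected, 19 some and 10 none. At least 1 was detected for 14 of 20 members with 2 probe sets, against 38.5% of all such genes. With 3 or more it was 9 of 13, against 56.3%. The share of all genes with only some probe sets detected is not given here, so such differences are not shown to be particular to the members. Mrpl11, at the base of the stalk, had 3 detected probe sets that did not agree on the order of samples: 5700, 4079 and 6334, then 3830, 2656 and 3596, and then 1711, 2238 and 1373. Sample 4 was lowest on the first pair and highest on the other, and the remaining probe set lay at 15.5, 108 and 214. On MOE430B the detected probe sets of Mrps5 read 3784, 2769 and 2027, and 2551, 3482 and 3169, so that sample 1 was highest on one and lowest on the other. Mrpl48 on MOE430A paired the probe set given above with another at 1320, 2601 and 1591. By contrast, the detected pairs of Mrpl41 and Mrpl39 differed in their deviations by at most 0.04 and 0.16 log2. For Mrpl11, Mrps5 and Mrpl48 the order of samples thus depended on the probe set. Those of Mrpl11 at 5700 and 1711 in sample 1, of Mrps5 at 3784 and of Mrpl48 at 2271 are of the class that can match several transcripts. The part of such matching in these differences was not tested.

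The subunits that carry other names were measured too. Dap3, the GTP-binding protein of the small subunit, read 1978, 2798 and 1659 on MOE430A, and Chchd1 read 1543, 2525 and 2201. Both were highest in sample 4. Ptcd3 was detected on MOE430B only, at 1851, 2000 and 2447. On MOE430A, 2 of 4 genes of this list were detected, against 30.7% of all genes.

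The factors that work with the mitochondrial ribosome were taken from lists of their own. On MOE430A, 4 of 13 mitochondrial translation factors, 6 of 22 assembly and rRNA modification genes, 1 of 8 mitochondrial aminoacyl-tRNA synthetases and 7 of 15 genes of mitochondrial DNA upkeep and transcription passed the limit. These were 30.8, 27.3, 12.5 and 46.7%, against 30.7% of all genes. On MOE430B the counts were 5 of 8, 6 of 14, 5 of 10 and 3 of 6, against 31.8% of all genes. The elongation factor Tufm was detected on MOE430B at 3282, 4155 and 5987, and its exchange factor Tsfm at 2173, 1932 and 10910, with sample 5 alone high. Gfm1, which moves the ribosome along the message, read 1589, 2300 and 2273 on MOE430A. Eral1, which binds small-subunit rRNA during assembly, read 1332, 1746 and 996. Tfam, a transcription factor that also packages mitochondrial DNA, read 1686, 1831 and 1947. Polrmt, the mitochondrial RNA polymerase, read 1689, 1657 and 2140.

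Of the regulators whose motifs were searched, Yy1 was detected on MOE430A at 5359, 4732 and 6906, and Gabpa, the DNA-binding part of GABP, at 1493, 1373 and 2444, both highest in sample 5. Nrf1 read 1272, 1851 and 843 on the brightest of its MOE430A probe sets and 2757, 1720 and 2805 on MOE430B, above the limit there in samples 1 and 5, and was detected on neither design. In all, 2 of 12 regulators were detected on MOE430A and 2 of 5 on MOE430B. The shares over all genes were 30.7% and 31.8%.

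The cytosolic ribosome and the respiratory chain are the gene groups nearest in function. On MOE430A, 41 of 43 cytosolic ribosomal protein genes and 66 of 69 nuclear genes of the respiratory chain and ATP synthase were detected. The share over all genes was 30.7%. The samples of these 2 groups were ordered otherwise than those of the members. The respiratory genes had medians of 0.26, 0.13 and -0.29 log2 in samples 1, 4 and 5, and 51 of 66 were lower in sample 5. Over all detected genes 2101 of 3801 were lower in that sample. Cytosolic ribosomal proteins had medians of 0.03, 0.07 and -0.03. The members had -0.16, 0.09 and 0.00, so that sample 1 was low for the proteins of the mitochondrial ribosome and high for the respiratory genes. These differences between lists were not tested.

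**Figure D5:**
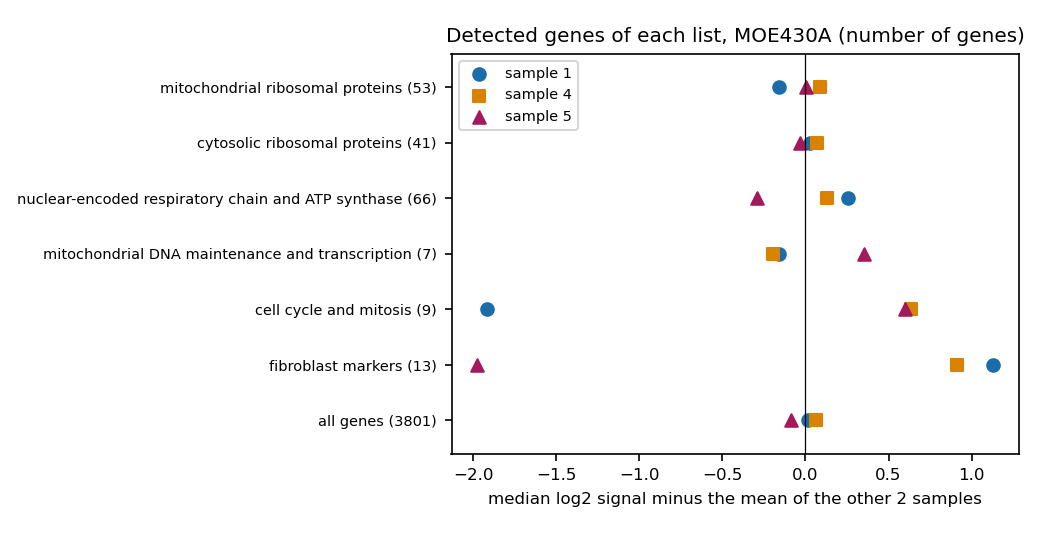
Median over the detected genes of each list (number in brackets) of the log2 signal of a sample minus the mean of the other 2, on MOE430A, for samples 1 (circle), 4 (square) and 5 (triangle). Members lie at -0.16, 0.09 and 0.00, and the cell cycle genes in sample 1 (-1.92) and fibroblast markers in sample 5 (-1.98) lie farthest from 0.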

How the data were processed

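Values were the authors' deposited MAS5 signals per probe set (linear intensity, per the submitters' processing notes); the 2% trimmed mean was near 1500 on every array. The settings of MAS5 are not stated. Deposited run files gave only settings (other values), per the file headers: all arrays were run on fluidics station 1 except the MOE430A array of sample 5, on station 2. No column of sample values was left unused (0).

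Signals were floored at 1 and taken to log2 with Python 3.11.15, numpy 2.4.6 and pandas 2.3.3; designs were kept apart. A gene was represented by its brightest detected probe set, and a sample's difference is its log2 signal minus the mean of the other 2. The members and lists were chosen with earlier results of these data known, and the motif letters after a first count. Named with values were, in each role, the first 4 by number, the 4 widest and 2 narrowest ranges per design, members on both designs, undetected members (values for the first 4), the Mrps18 paralogs, Mrps30, Mrps36 and the 3 genes with the most discordant probe sets; other members given with values were chosen after their values were seen. Calculations were tested on simulated data. Alternatives covered the limit, arrays needed, scaling, low signals, probe set choice and leaving out a sample. Gene coordinates other than those of the promoters were not used here.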

Additional observations from a re-analysis of the deposited data

How the results depend on the processing

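On MOE430A the number of detected members ran from 36 (limit at the 99th percentile) to 62 (90th percentile), and the median difference of sample 1 stayed below 0 in all alternatives run, from -0.21 to -0.09 log2. The medians of samples 4 and 5 lay near 0 and changed sign between alternatives, from -0.01 to 0.21 and from -0.10 to 0.13. The MOE430B results were less stable. With no filter the median SD was 0.386 and the median of sample 1 was 0.209. The widened background list, whose 18 probe sets include that of Epcam, left 1 member, with 0.209 in sample 1 and -0.375 in sample 5. The carried limit left 6 members, with -0.372 in sample 1. Leaving out a sample in turn moved the MOE430B median of sample 4 between -0.376 and -0.063, that of sample 5 between 0.18 and 0.376 and the median SD between 0.157 and 0.288; the lowest SD came without sample 5. The cause of these shifts was not tested beyond the smaller number of members kept. Of the alternative medians of a sample, 52 moved by less than the members' median SD and 5 by more; of the counts and median SDs, 38 stayed within 1.5 times the value reported and 4 did not. No paired analysis was possible because the result comes from no test: the study has a single group.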
